A study of Mus musculus with 48 samples.

Results

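The 6 genes described here lie outside the usual neuronal marker families and were chosen from among the largest losses of signal in the transgenic cortex of a mouse array study: Slc23a3, Sytl1, Gpr153, Mslnl, Otof and Fst. They are 6 of the 16593 named genes on the array. The members were chosen from measured values, among the largest cortical decreases at 7 and 11 months of age, so their cortical levels at those ages are given below as a description, with no test. The 2-month cortex, the striatum at every age and the comparison of the regions in wild-type mice did not enter the choice. The members were tested only there. A large cortical decrease needs signal in cortex, so the choice favoured genes with cortical signal, which bears on the comparison of the regions. Genes that are not members were also tested in cortex at 7 and 11 months. Striatum and cortex came from the same mice, so the striatal arrays are other measurements, not other animals.

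Transcripts were measured in BACHD-ΔN17 mice and their wild-type controls, both on the FvB/NJ strain, at 2, 7 and 11 months. BACHD-ΔN17 mice carry mutant human huntingtin, the protein behind Huntington's disease, on a bacterial artificial chromosome, in a form that lacks its N-terminal segment. They are a germline transgenic model, so cortex and striatum of every BACHD-ΔN17 mouse carry the transgene. Total RNA from 24 mice was labelled and read on 48 Illumina MouseRef-8 arrays, 1 for the cortex and 1 for the striatum of each mouse, with 4 mice (2 males and 2 females) in each of the 12 groups. The labels number the mice but do not say whether any shared a litter.

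Each array measured 12477 to 14378 probes above background (detection p-value under 0.05). The 8 arrays with internal sample numbers 1 to 8 had the fewest probes detected, 12477 to 13187, and the other 40 had 13226 to 14378. On all 48 arrays Xist lay on the side of the labelled sex. The cortical excitatory neuron markers (13 measured genes, mean normalized log2 level of an array) lay at 9.83 to 10.23 over the BACHD-ΔN17 cortices and 10.01 to 10.29 over the wild-type cortices. Over BACHD-ΔN17 and wild-type striata they lay at 8.41 to 9.16 and 8.56 to 9.25, below every cortex. Values below are background-corrected, quantile-normalized log2 intensities of 1 probe per gene. A difference of 1 on this scale is a doubling of signal, and levels of different probes are not compared with each other. Because whole tissue was used, fewer cells of a type and less RNA per cell cannot be told apart.

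The 6 genes encode proteins of unrelated kinds. Slc23a3 belongs to the nucleobase and ascorbate transporter family, whose relatives Slc23a1 and Slc23a2 carry vitamin C. Sytl1 encodes a synaptotagmin-like protein that binds Rab27 on secretory vesicles. Otof encodes otoferlin, a calcium-binding ferlin needed for transmitter release by inner hair cells of the ear, and Gpr153 an orphan class A G protein-coupled receptor. Mslnl is named for its likeness to mesothelin, a cell surface glycoprotein. Fst encodes follistatin, a secreted protein that binds activins, ligands of the transforming growth factor beta family, and keeps them from their receptors. Activins act through type I and type II receptor kinases that phosphorylate Smad2 and Smad3, and Inhba, which encodes the activin A subunit, is induced by neuronal activity.

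The promoter windows of the members are shown as a description. That the genes fell in cortex at the same ages was fixed by the choice, and shared control was not tested. RefSeq windows on mouse build GRCm38.p6 were at hand for 4 of the 6 members, each of 300 bases that run from 250 bases before the start of the gene to 50 bases into it. They are written 5′ to 3′ on the strand of the gene. Capitals mark matches, on either strand, to 6 short motifs: the TATA box TATAAA, the E-box CANNTG, the CRE core TGACG, the AP-1 site TGANTCA, the GC box GGGCGG and the EGR site GCGTGGGCG, whose last bases can overlap a GC box.
Slc23a3 (chr1:75133841-75134140, minus strand): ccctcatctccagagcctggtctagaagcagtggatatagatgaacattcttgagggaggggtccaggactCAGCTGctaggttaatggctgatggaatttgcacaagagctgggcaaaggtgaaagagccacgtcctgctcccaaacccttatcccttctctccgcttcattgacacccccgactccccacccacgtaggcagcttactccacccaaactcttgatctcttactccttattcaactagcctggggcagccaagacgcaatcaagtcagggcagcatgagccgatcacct
Sytl1 (chr4:133263038-133263337, minus strand): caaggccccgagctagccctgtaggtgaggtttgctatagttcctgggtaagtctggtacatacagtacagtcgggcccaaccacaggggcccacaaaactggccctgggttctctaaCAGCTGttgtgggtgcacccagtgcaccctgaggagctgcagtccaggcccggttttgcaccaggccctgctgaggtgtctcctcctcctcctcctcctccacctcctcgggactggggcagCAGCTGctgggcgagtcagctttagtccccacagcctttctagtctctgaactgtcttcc
Gpr153 (chr4:152273862-152274161, plus strand): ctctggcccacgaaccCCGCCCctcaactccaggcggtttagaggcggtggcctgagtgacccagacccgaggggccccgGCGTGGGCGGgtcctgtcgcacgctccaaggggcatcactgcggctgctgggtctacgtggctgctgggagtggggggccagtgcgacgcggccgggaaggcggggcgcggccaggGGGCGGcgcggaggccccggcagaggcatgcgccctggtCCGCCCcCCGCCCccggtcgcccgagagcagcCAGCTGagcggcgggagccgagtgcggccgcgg
Mslnl (chr17:25735790-25736089, plus strand): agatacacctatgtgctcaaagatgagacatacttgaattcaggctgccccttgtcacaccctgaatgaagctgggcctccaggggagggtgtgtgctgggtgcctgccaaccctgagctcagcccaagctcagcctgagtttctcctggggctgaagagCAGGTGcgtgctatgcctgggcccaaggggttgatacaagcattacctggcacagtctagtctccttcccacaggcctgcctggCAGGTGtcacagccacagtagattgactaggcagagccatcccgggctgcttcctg

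In the windows of Slc23a3, Sytl1 and Mslnl the only matches were E-boxes, 1 in Slc23a3 and 2 each in Sytl1 and Mslnl, a motif present in 72.3% of the 32544 distinct windows of the table. Gpr153 was of another base composition, with 77.3% G and C against 53.3% in Slc23a3, 57.7% in Mslnl and 60.0% in Sytl1, and a median of 53.0% over all windows. Its window held 5 GC boxes, found at least once in 35.9% of all windows, 1 E-box, and 1 EGR site, found in 0.618%. The EGR site of Gpr153 began 170 bases before the start and overlapped a GC box that began 166 bases before it. A second Gpr153 window of the table, which starts 250 bases further along, held 2 GC boxes, 1 E-box and no EGR site. No window of these members held a TATA box (13.6% of all windows), a CRE core (20.9%) or an AP-1 site (7.79%). A match is a run of letters, not a measured binding site.

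In cortex at 7 and 11 months, each of the 6 genes had all 4 BACHD-ΔN17 arrays below all 4 wild-type arrays. Among the 11047 features tested in cortex, 4.63% lay apart in this way at 7 months and 8.3% at 11 months, and 1.28% and 9.17% were called lower at an adjusted p under 0.05. Nothing is read from these counts for the members, since these 2 ages chose them. Background correction sets the size of these differences: without it they were -0.78 (Slc23a3) to -0.38 (Otof) at 7 months and -1.57 (Slc23a3) to -0.61 (Mslnl) at 11 months. At 2 months the levels of the genotypes were close, though the Gpr153 groups did not overlap, as the plot of cortical values shows for every mouse.

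**Figure D1:**
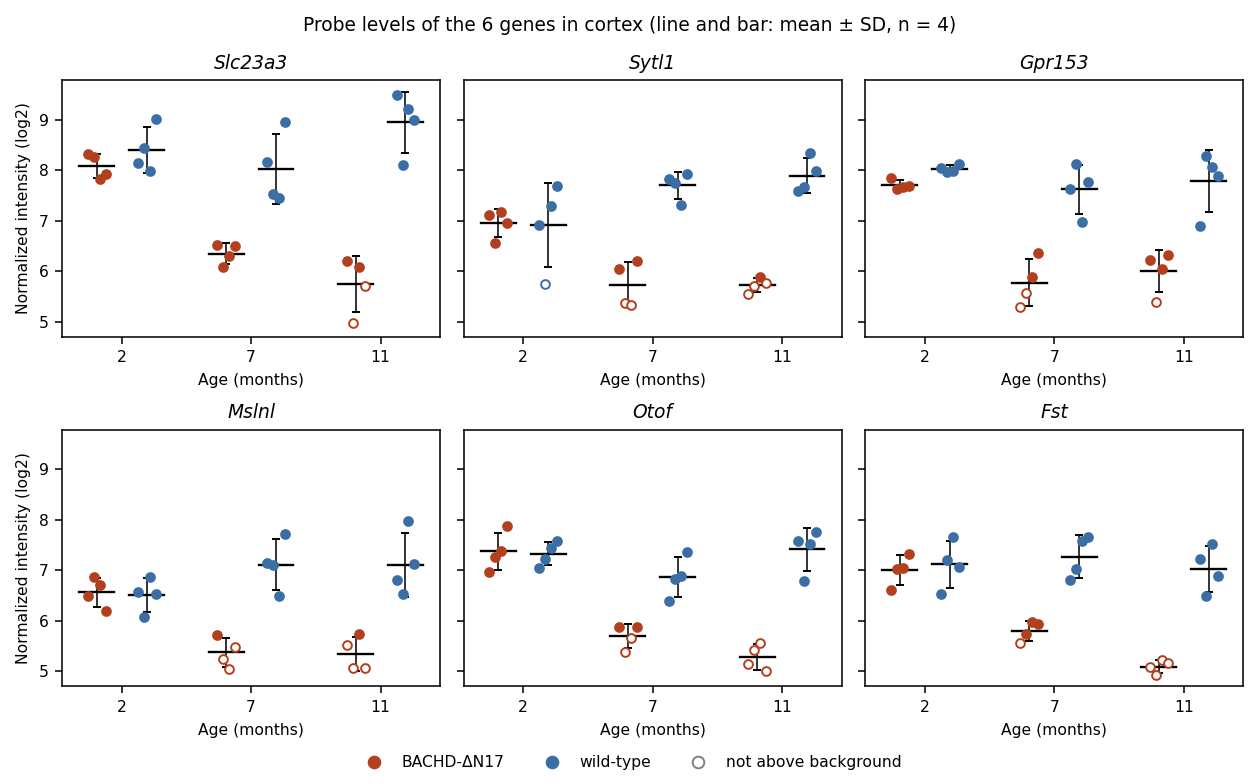
Normalized log2 intensity of the 6 genes in each cortex, by age in months, with BACHD-ΔN17 mice left of wild-type mice at each age. Each point is 1 mouse, open points were not above background, and the line and bar are the mean and SD of 4 mice. The groups lie near each other at 2 months and apart at 7 and 11 months, and all 4 BACHD-ΔN17 points are open at 11 months for Otof and Fst.

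Slc23a3 showed the largest cortical decrease of all tested features at 11 months. At 7 months it read 6.52, 6.08, 6.29 and 6.49 in BACHD-ΔN17 cortices and 8.16, 7.54, 7.44 and 8.96 in wild-type cortices. At 11 months the BACHD-ΔN17 values were 6.21, 4.98, 6.08 and 5.71, with 2 of the 4 above background, and the wild-type values 9.49, 8.10, 9.21 and 8.99. The highest BACHD-ΔN17 cortex lay below the lowest wild-type cortex at both ages, and further below it at 11 months. The log2 difference was -1.68 (SE 0.28) at 7 months and -3.20 (SE 0.28) at 11 months, 3.20-fold and 9.21-fold on the linear scale. In females the 11-month difference was -3.75 and in males -2.65 (2 mice of each genotype per sex).

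Sytl1 had the largest cortical decrease at 7 months. It read 6.05, 5.37, 5.32 and 6.19 in BACHD-ΔN17 cortices, 2 of them above background, and 7.82, 7.74, 7.31 and 7.92 in wild-type cortices. At 11 months the BACHD-ΔN17 values were 5.54, 5.71, 5.88 and 5.77, with 1 above background, and the wild-type values were 7.58, 7.66, 8.34 and 7.98. The BACHD-ΔN17 group was therefore at or near the detection limit at both ages, while every wild-type mouse was above it. The log2 differences were -1.97 (SE 0.28) at 7 months and -2.16 (SE 0.28) at 11 months.

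Gpr153 ranked 2 of 11047 at 7 months, with 5.28, 5.57, 5.88 and 6.36 in BACHD-ΔN17 cortices and 7.62, 8.13, 6.97 and 7.77 in wild-type cortices. At 11 months it read 6.23, 5.40, 6.05 and 6.33 in BACHD-ΔN17 cortices, and 6.90, 8.29, 8.07 and 7.88 in wild-type cortices. At each age 1 wild-type mouse came close to the BACHD-ΔN17 range. Of the 4 BACHD-ΔN17 cortices, 2 were above background at 7 months and 3 at 11 months. The log2 differences were -1.85 and -1.78 (SE 0.27 each). The orphan receptor's fitted decrease was thus of like size at both ages, but values near background limit how far the sizes can be compared.

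Mslnl, the mesothelin-like gene, read 5.72, 5.25, 5.06 and 5.48 in BACHD-ΔN17 cortices at 7 months and 7.15, 7.10, 6.49 and 7.71 in wild-type cortices. At 11 months the values were 5.53, 5.06, 5.74 and 5.07 in BACHD-ΔN17 cortices and 6.80, 6.53, 7.99 and 7.13 in wild-type cortices. At each age 1 of the 4 BACHD-ΔN17 arrays and all 4 wild-type arrays were above background. The log2 differences were -1.74 and -1.76 (SE 0.26 each).

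Otof and Fst were above background in 2 and 3 of the 4 BACHD-ΔN17 cortices at 7 months and in none at 11 months. Otof read 5.87, 5.39, 5.66 and 5.89 in BACHD-ΔN17 cortices and 6.40, 6.84, 6.88 and 7.36 in wild-type cortices at 7 months, a log2 difference of -1.16 (SE 0.24). At 11 months it was not above background in any BACHD-ΔN17 cortex (5.15, 5.43, 5.56 and 5.01) and read 7.59, 6.78, 7.53 and 7.76 in wild-type cortices. An undetected group has only a bound, taken from the detection floor of each array. By it Otof was at least 2.83-fold lower in BACHD-ΔN17 cortex. Such a bound compares group means and holds only on the background-corrected scale. The fitted log2 difference of Otof was -2.13 (SE 0.24), and -0.76 without background correction. A second Otof probe was not tested, because it was above background on only 1 cortical and 1 striatal array, both wild-type.

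Fst, the activin antagonist, read 5.56, 5.75, 5.98 and 5.95 in BACHD-ΔN17 cortices at 7 months, with 3 of 4 above background, and 6.80, 7.02, 7.59 and 7.67 in wild-type cortices. At 11 months the BACHD-ΔN17 values were 5.08, 4.93, 5.22 and 5.16, none above background, and the wild-type values 7.23, 6.49, 7.53 and 6.88. Follistatin transcript was at least 2.17-fold lower in BACHD-ΔN17 cortex at 11 months by the same bound. The fitted log2 differences were -1.46 at 7 months and -1.93 at 11 months (SE 0.24 each).

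The members did not stand alone at the edge of the choice. At 7 months 1700016K19Rik (-1.48) lay between Slc23a3 and Fst, Etnppl (-1.46), Mylk3 (-1.41) and Dmkn (-1.41) lay between Fst and Otof, and Otof, at rank 17, lay between Egr2 (-1.17) and Wfs1 (-1.14). At 11 months Egr2 (-2.60) and Ddit4l (-2.23) lay between Slc23a3 and Sytl1, and Scube1 (-1.74) followed Mslnl. Npas4 (-1.91) and Inhba (-1.87) had fitted differences near that of Fst, but Otof and Fst have only bounds at that age, so their place in this order is not known. The list of 6 does not hold these neighbours.

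The same cortical values that chose the members were also read by set of arrays and by sex. Their direction was fixed by the choice, so these are descriptions and support nothing. Within arrays of numbers 1 to 8, where 2 BACHD-ΔN17 and 2 wild-type cortices of 11 months lay together, the difference ranged from -3.20 for Slc23a3 to -1.37 for Mslnl. Of the other sets of 8 consecutive numbers, 3 held 1 cortex of each genotype at 7 or 11 months. Every member was lower in the BACHD-ΔN17 cortex of each, by -2.46 (Sytl1) to -1.01 (Otof) at 7 months and by -3.50 (Slc23a3) to -1.74 (Gpr153) at 11 months. In females and males taken apart (2 mice of each genotype), the means of all members were lower too, with differences as low as -2.18 at 7 months and -3.75 at 11 months.

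At 2 months none of the 6 genes passed the test in cortex, where no other feature passed it either. Of 11047 features 0% were called lower, 0 were called at all by limma, and 219 had an unadjusted p under 0.05. Slc23a3 read 8.32, 8.25, 7.82 and 7.93 in BACHD-ΔN17 cortices and 8.14, 8.44, 7.99 and 9.02 in wild-type cortices, a log2 difference of -0.32 (95% interval -0.88 to 0.25, limma adjusted p = 1). Gpr153 read 7.84, 7.62, 7.66 and 7.68 in BACHD-ΔN17 cortices and 8.05, 7.95, 7.99 and 8.12 in wild-type cortices. Its groups did not overlap, but its difference of -0.32 did not pass the test (95% interval -0.88 to 0.23, limma adjusted p = 1). The other 4 members differed by -0.11 (Fst) to 0.05 (Mslnl and Otof), each with an adjusted p of 1. Their intervals reached from -0.62 at the lowest to 0.62 at the highest, so changes of up to about that size at 2 months are not excluded. These limits are not the smallest change that the adjusted test could have called.

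The striatum gave the test that the choice of members did not use. Fst fell there to background, Otof and Gpr153 fell more moderately, and Slc23a3, Sytl1 and Mslnl were at or below the detection limit in most striata of either genotype. Of 11225 features tested in striatum, 0.00891% were called lower at 2 months, 7.3% at 7 months and 10.1% at 11 months. All 4 BACHD-ΔN17 arrays lay below all 4 wild-type arrays for 9.71% of features at 7 months and 11.2% at 11 months.

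**Figure D2:**
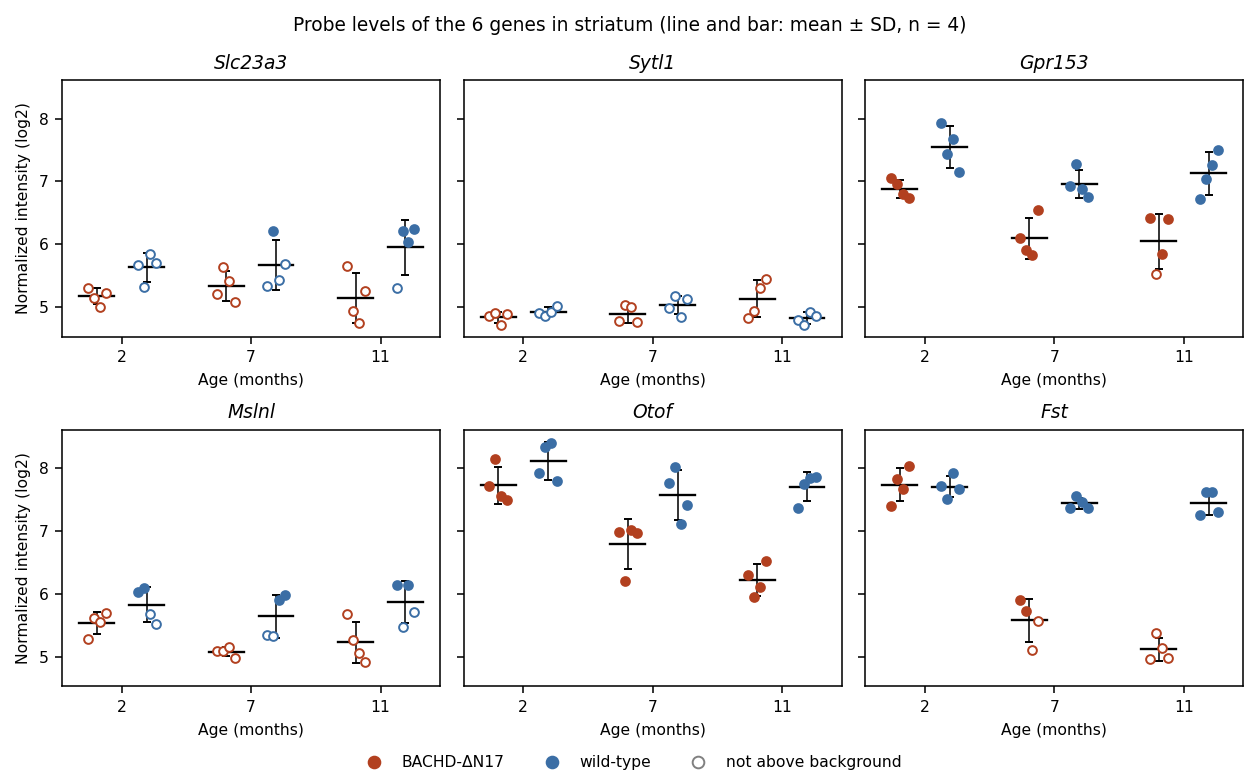
Normalized log2 intensity of the 6 genes in each striatum, by age in months, with BACHD-ΔN17 mice left of wild-type mice at each age. Each point is 1 mouse, open points were not above background, and the line and bar are the mean and SD of 4 mice. Fst separates fully at 7 and 11 months, and Sytl1 is open on all 24 arrays.

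Fst in striatum did not pass the test at 2 months, with 7.40, 7.84, 7.68 and 8.03 in BACHD-ΔN17 striata and 7.72, 7.51, 7.92 and 7.68 in wild-type striata (log2 difference 0.03, 95% interval -0.34 to 0.40, limma adjusted p = 0.999). At 7 months it read 5.90, 5.73, 5.11 and 5.58 in BACHD-ΔN17 striata and 7.37, 7.55, 7.47 and 7.37 in wild-type striata. At 11 months it was not above background in any BACHD-ΔN17 striatum (4.97, 5.37, 5.14 and 4.99) and read 7.26, 7.62, 7.62 and 7.31 in wild-type striata. The groups were far apart at both later ages, and the wild-type mice lay close together. The log2 difference was -1.86 (SE 0.18, limma adjusted p = 5.59e-08) at 7 months and -2.34 (SE 0.18, adjusted p = 3.4e-10) at 11 months, where Fst, undetected in the transgenic mice, was at least 3.24-fold lower in BACHD-ΔN17 striatum. The fitted genotype difference itself changed by -2.36 between 2 and 11 months (SE 0.25, limma adjusted p = 8.53e-07), a comparison in which 6.68% of features were called. Without background correction the differences of Fst were -0.66 and -0.83 at 7 and 11 months, and they stayed past the threshold.

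Otof was above background in every striatum (detection p-value under 0.05), though in BACHD-ΔN17 striata of 11 months not by far, with detection p-values of 0.00125 to 0.0288. At 2 months it read 7.72, 8.15, 7.57 and 7.49 in BACHD-ΔN17 striata and 7.92, 8.35, 8.41 and 7.79 in wild-type striata, groups that overlapped (log2 difference -0.38, limma adjusted p = 0.99). At 7 months it read 6.98, 6.21, 7.02 and 6.98 in BACHD-ΔN17 striata and 7.77, 8.02, 7.11 and 7.41 in wild-type striata. At 11 months it read 6.30, 5.95, 6.12 and 6.53 in BACHD-ΔN17 striata and 7.36, 7.75, 7.85 and 7.87 in wild-type striata. Otoferlin transcript thus lay lower in all BACHD-ΔN17 mice of the 2 later ages, and its log2 difference was -0.78 (SE 0.22, limma adjusted p = 0.0166) at 7 months and -1.49 (SE 0.22, adjusted p = 1.23e-05) at 11 months. The 7-month call was lost without BACHD-ΔN17 replicate 2 (adjusted p = 0.084), wild-type replicate 1 (adjusted p = 0.0543) or wild-type replicate 2 (adjusted p = 0.0656), all by limma. The change of its genotype difference between 2 and 11 months was -1.10 (SE 0.31, limma adjusted p = 0.026). That call was lost without BACHD-ΔN17 replicate 2 of 2 months (adjusted p = 0.0728), wild-type replicates 1 and 4 of 2 months (0.0561 and 0.0666), BACHD-ΔN17 replicates 2 and 3 of 11 months (0.0599 and 0.0592), or wild-type replicates 3 and 4 of 11 months (0.0538 and 0.0635). It was also lost under 5 other settings, with limma adjusted p-values of 0.0551 to 0.186.

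Gpr153 fell in striatum at both later ages. It read 6.09, 5.90, 5.83 and 6.55 in BACHD-ΔN17 striata and 6.93, 7.28, 6.88 and 6.75 in wild-type striata at 7 months. At 11 months it read 6.42, 5.52, 5.85 and 6.40 in BACHD-ΔN17 striata and 6.71, 7.03, 7.25 and 7.51 in wild-type striata. The orphan receptor's groups did not overlap at either age. The log2 difference was -0.87 (SE 0.21, limma adjusted p = 0.0064) at 7 months and -1.08 (SE 0.21, adjusted p = 0.000454) at 11 months. At 2 months it read 7.05, 6.96, 6.80 and 6.74 in BACHD-ΔN17 striata and 7.94, 7.43, 7.68 and 7.14 in wild-type striata. These groups did not overlap either, and the share of all features apart in this way at 2 months was not counted. The 2-month difference of -0.66 did not pass (95% interval -1.09 to -0.23, limma adjusted p = 0.911, unadjusted 0.00415). The change of the genotype difference between 2 and 11 months did not pass either (-0.42, adjusted p = 0.486).

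Slc23a3 and Mslnl passed the detection filter of the striatum only through wild-type arrays, 4 for Slc23a3 and 6 for Mslnl, so the filter itself favoured a difference and no test of them is given here. Neither was above background in any BACHD-ΔN17 striatum at any age. Slc23a3 at 11 months read 5.66, 4.94, 4.75 and 5.25 in BACHD-ΔN17 striata and 5.31, 6.22, 6.04 and 6.25 in wild-type striata. The groups overlapped, only 3 of the wild-type arrays were above background, and no bound on the difference is given. Mslnl at 11 months read 5.68, 5.26, 5.05 and 4.92 in BACHD-ΔN17 striata and 6.14, 5.47, 6.15 and 5.71 in wild-type striata. Its groups also overlapped, and with only 2 of the wild-type arrays above background it has no bound either. At 2 months Slc23a3 was not above background in any striatum of either genotype, and Mslnl was above it in 2 wild-type striata. Sytl1 was not above background on any of the 24 striatal arrays (4.71 to 5.45) and was not tested there.

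**Figure D3:**
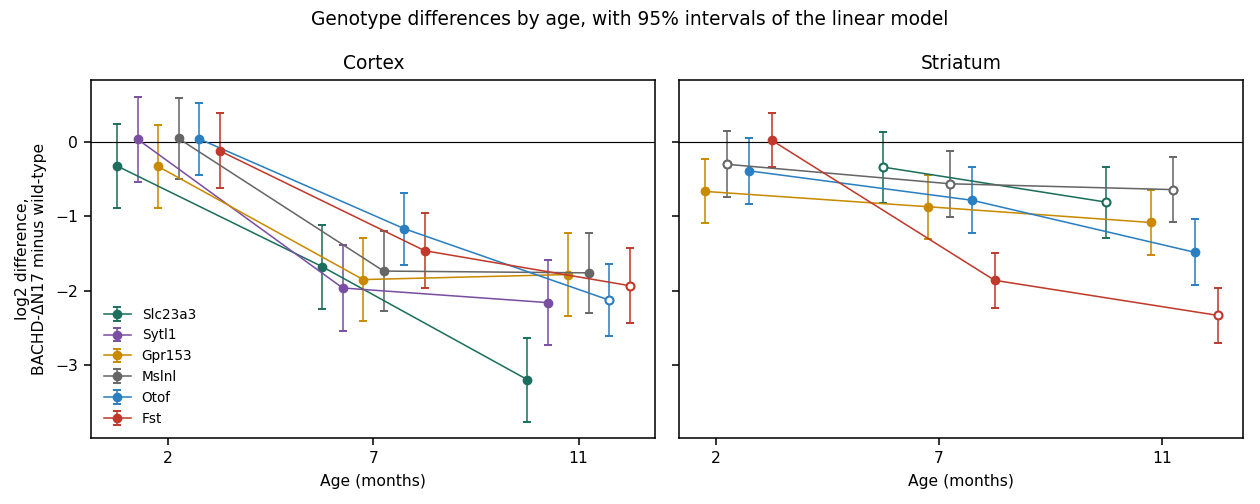
Log2 difference of BACHD-ΔN17 minus wild-type mice for each gene, by age in months, in cortex (left) and striatum (right), with 95% intervals of the linear model over 24 arrays per region. Open points mark a BACHD-ΔN17 group with no array above background, where the fitted size of the difference cannot be taken as measured. The cortical values at 7 and 11 months chose the genes, Sytl1 has no striatal value, and Slc23a3 has none at 2 months in striatum. In striatum Slc23a3 and Mslnl passed the detection filter only through wild-type arrays, which favoured points below 0, so their points are no test. The striatal points of Fst, Otof and Gpr153 at 7 and 11 months lie below 0.

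The change with age in wild-type striatum is given for Gpr153, Otof, Fst and Mslnl. None of them was called between 11 and 2 months, a comparison in which 0.134% of features (15) passed and 1057 had an unadjusted p under 0.05. The log2 differences (11 minus 2 months) were -0.42 for Gpr153, -0.41 for Otof, -0.26 for Fst and 0.03 for Mslnl, with limma adjusted p-values of 0.552 to 0.972. Their 95% intervals reached from -0.85 at the lowest to 0.48 at the highest. Slc23a3 passed the detection filter of the striatum only through wild-type arrays of 7 and 11 months. The filter thus favoured a rise with age, so no test and no bound of it are given.

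In 2-month wild-type mice the members divided by region, as the plot of both regions shows. Slc23a3 and Sytl1 were above background in cortex and in no striatum, Otof and Fst were higher in striatum, and Gpr153 and Mslnl did not pass the test. Of 11844 features tested within mice, 35% were called in this comparison. The values that follow are not in the same order of mice for both regions, so they do not pair by position. Slc23a3 read 5.66, 5.31, 5.84 and 5.70 in striatum, none above background, and 8.14, 8.44, 7.99 and 9.02 in cortex. By the bound on the background-corrected scale, Slc23a3 was at least 5.87-fold lower in striatum (fitted log2 difference, striatum minus cortex, -2.77, SE 0.23, limma adjusted p = 2.48e-09). Without background correction the difference was -1.20 (limma adjusted p = 1.94e-10). The choice of members favoured genes with signal in cortex, so this difference is not independent of it. Sytl1 read 4.91, 4.86, 4.92 and 5.02 in striatum and 6.91, 5.75, 7.29 and 7.69 in cortex, where the array at 5.75 was not above background either. That undetected cortical array leaves no bound on the size of the difference. Sytl1 entered this comparison only through cortical arrays, so no test of it is given.

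**Figure D4:**
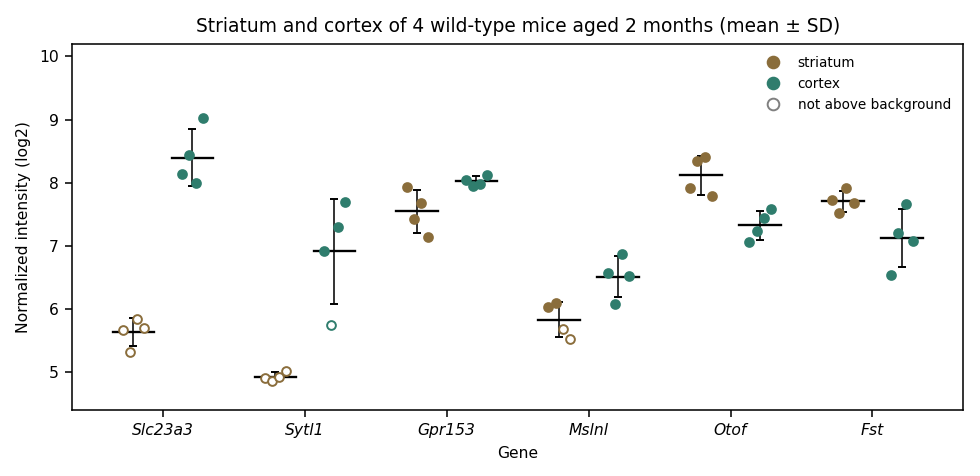
Normalized log2 intensity of the 6 genes in striatum (left of each pair) and cortex (right) of the 4 wild-type mice aged 2 months. Each point is 1 array, open points were not above background, and the line and bar are the mean and SD. Slc23a3 and Sytl1 are open in every striatum, while Otof lies higher in every striatum than in any cortex.

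Otof averaged 8.12 ± 0.31 in striatum and 7.33 ± 0.23 in cortex (SD, n = 4 each), a log2 difference of 0.79 (SE 0.15, limma adjusted p = 0.000227), with no overlap. With the labels' replicate number as a block the Otof difference was 0.63 and missed the threshold (limma adjusted p = 0.0552). Fst averaged 7.71 ± 0.17 in striatum and 7.12 ± 0.46 in cortex (SD, n = 4 each), a difference of 0.59 (SE 0.15, limma adjusted p = 0.00453), though 1 cortex lay within the striatal range. The Fst call was lost without striatal wild-type replicate 1 (limma adjusted p = 0.071). Gpr153 (-0.48, 95% interval -1.04 to 0.08, adjusted p = 0.185) and Mslnl (-0.68, 95% interval -1.29 to -0.07, adjusted p = 0.0786) were not called by limma.

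The pathway of Fst and the families of the other members were read beside them. Of the 16 tested genes of the activin pathway 0 rose and 2 fell in cortex at 7 months, and 0 rose and 4 fell at 11 months, when 1.28% and 9.17% of all features were called lower. The list median at 11 months was 0.07, against 0.02 over all features. Inhba, the activin A subunit, averaged 7.64 in BACHD-ΔN17 cortices and 9.51 in wild-type cortices at 11 months, a log2 difference of -1.87 (SE 0.19, limma adjusted p = 7.99e-08), and -1.10 at 7 months (adjusted p = 0.000824). Ligand and antagonist thus both lay lower. Acvr1c, a type I receptor (-0.69, limma adjusted p = 0.0072), Smad3, which activin receptors phosphorylate (-0.65, adjusted p = 0.000476), and Fstl4, a follistatin-like gene (-1.11, adjusted p = 3.94e-06), also fell in cortex at 11 months. The other activin subunit gene Inhbb did not pass (0.10, adjusted p = 0.822), nor did Fstl1 (0.34, adjusted p = 0.114).

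**Figure D5:**
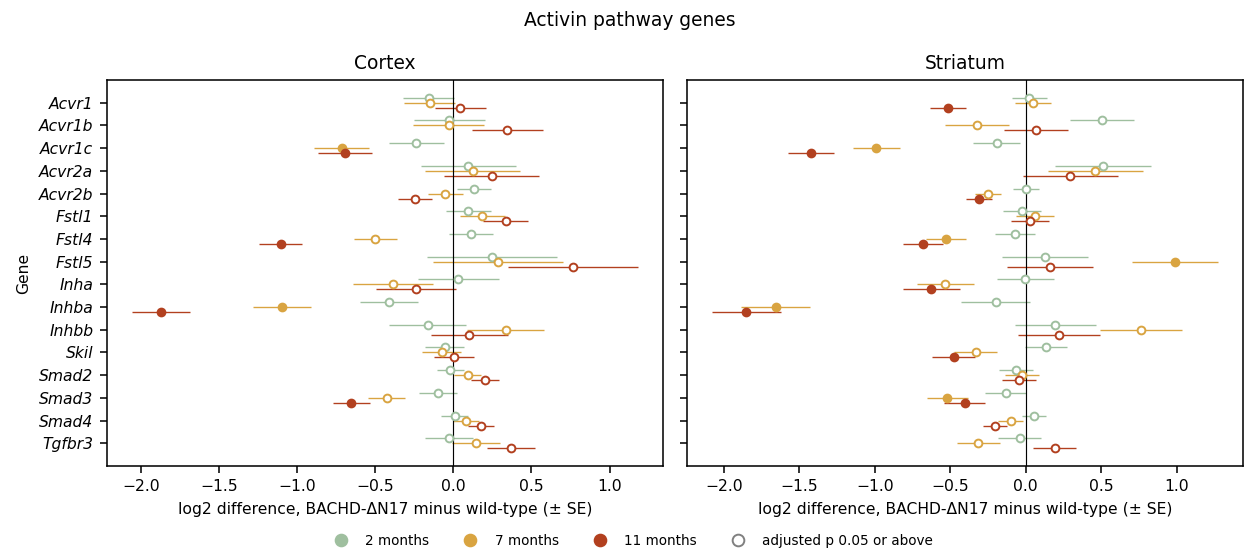
Log2 difference of BACHD-ΔN17 minus wild-type mice (± SE) for the 16 tested activin pathway genes, in cortex (left) and striatum (right), at 2, 7 and 11 months. Filled points passed an adjusted p under 0.05. Inhba is filled at 7 and 11 months in both regions, and no gene is filled at 2 months.

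In striatum 4 of the 16 activin pathway genes fell and 1 rose at 7 months, and 8 fell at 11 months. Over all features 7.3% were called lower and 5.28% higher at 7 months, and 10.1% lower at 11 months. The list medians were -0.28 and -0.26 against 0.01 and 0.02 over all features. Inhba averaged 8.21 in BACHD-ΔN17 striata and 10.06 in wild-type striata at 11 months, a log2 difference of -1.85 (SE 0.23, limma adjusted p = 9.08e-07). Acvr1c fell by 1.42 on the log2 scale (SE 0.15, adjusted p = 1.48e-07). Fstl5 rose at 7 months by 0.99 (SE 0.28, limma adjusted p = 0.0211) from a probe above background on 1 wild-type array, and did not pass at 11 months. At 2 months none of the 16 was called by limma in either region.

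Of 11 tested orphan class A receptors, the group of Gpr153, 1 fell in cortex at 7 months and 4 at 11 months, against 1.28% and 9.17% of all features, and none rose. The 4 were Gpr3 (-1.16), a receptor that raises cyclic AMP without a known ligand, Gpr83 (-1.08), Gpr26 (-0.91) and Gpr162 (-0.52), with limma adjusted p-values of 2.67e-07 to 0.00594. Gpr3 was above background in only 1 BACHD-ΔN17 cortex at that age, so the size of its decrease was set near background. In striatum 5 of 12 fell at 7 months and 6 at 11 months, against 7.3% and 10.1% of all features, with list medians of -0.39 and -0.47. Gpr158, an orphan receptor of class C that the list also held, is left out of these counts, and it fell in striatum at both ages (-0.40 and -0.62, limma adjusted p = 0.000111 and 8.45e-08). Gpr12 (-1.39, limma adjusted p = 9.64e-10) and Gpr6 (-1.32, adjusted p = 2.44e-07), close relatives of Gpr3, led at 11 months. Gpr6 is known from striatal projection neurons of the indirect pathway.

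The kin of Sytl1, Otof and Slc23a3 were read against the same shares of all features, 9.17% called lower in cortex and 10.1% in striatum at 11 months, and 8.73% called higher there. Of 11 tested genes of Rab27-dependent secretion, only Rph3a, which encodes rabphilin (-0.67, limma adjusted p = 3.16e-05), was called in cortex at 11 months, and 0 at 7 months. In striatum Sytl2, a tested relative of Sytl1, rose by 0.48 at 7 months (limma adjusted p = 0.028) and 0.59 at 11 months (adjusted p = 0.00408), while Myrip (-0.46) fell at 7 months and Doc2b (-0.49) at 11 months. Of 9 tested genes of calcium-triggered release, read beside Otof, Cplx2, the fusion clamp complexin 2, fell in cortex at 7 months (-0.58) and 11 months (-0.78), and the membrane fusion gene Stx1a fell at 11 months (-0.32). In striatum, where 8 were tested, Cplx2 fell at 7 months (-0.33) and 11 months (-0.81). Slc17a8, the transporter that loads glutamate into the vesicles of inner hair cells, fell there at 7 months (-0.89) and 11 months (-1.13). Slc23a2, the vitamin C transporter of neurons, was not called in any of the 6 comparisons, with log2 differences of -0.04 to 0.43 (limma adjusted p = 0.476 to 1), and neither was Slc23a4 (adjusted p = 0.528 to 1). None of the 3 mesothelin family genes was detected well enough to be tested.

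Across the 24 cortical arrays the features most like each member were named as a description, since they share the arrays and the genotype and age groups that the members were chosen on. The nearest pattern to Slc23a3 was that of Inhba (Pearson r = 0.93), to Otof that of Itpka (0.94), a calmodulin-dependent inositol kinase, and to Fst that of Kcnh1 (0.94), a potassium channel, followed by Camk2a (0.94) and the neuropeptide gene Npy (0.93). Sytl1 was nearest to Sptb (0.92), a spectrin, and Vamp1 (0.89), a vesicle fusion protein. Gpr153 was nearest to an unnamed probe (0.93) and to 1700016K19Rik (0.92). Mslnl was nearest to another unnamed probe (0.90) and to the sialidase gene Neu2 (0.89). Clec11a was among the nearest 3 of both Slc23a3 and Otof, Arpp21 of both Slc23a3 and Mslnl, Lingo1 of Otof, Gpr83 of Sytl1 and Nrn1 of Gpr153. All of these named features had lower BACHD-ΔN17 means in cortex at both 7 and 11 months.

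Lists of cell type markers were read on the same arrays. Of 12 tested excitatory neuron markers 1 fell at 7 months (Camk2a, -0.47) and 5 at 11 months, with list medians of -0.20 and -0.33 against 0.01 and 0.02 over all features. Their mean level was 9.83 to 9.93 in BACHD-ΔN17 cortices and 10.01 to 10.15 in wild-type cortices at 11 months. Of the 13 genes in that mean, Foxp2 was not above background on any array of either genotype at that age. Of 8 inhibitory neuron markers 1 fell at 7 months, and so did 1 of 7 astrocyte markers, while 1.28% of all features were called lower and 0.498% higher. Over all features 9.17% were called lower and 6.97% higher in cortex at 11 months. Of the inhibitory markers 3 fell and 1 rose then, of 7 astrocyte markers 2 fell, of 6 microglia markers 1 fell, and of 7 oligodendrocyte and 6 endothelial and meningeal markers 0 were called. In striatum at 11 months 5 of 12 excitatory, 1 of 8 inhibitory, 1 of 8 astrocyte, 3 of 6 microglia and 1 of 5 endothelial and meningeal markers fell, 2 astrocyte and 2 microglia markers rose, and 0 of 7 oligodendrocyte markers were called. The part of these shifts in the members' values was not tested.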

How the data were processed

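Cortex and striatum of 24 mice were read on 48 1-colour Illumina arrays with 25697 probes. The authors deposited linear, unnormalized bead intensities per the file headers. Beside each intensity the authors deposited a detection p-value, the chance of such a signal from negative control beads. A second deposited table of the authors holds log2 values, which matched quantile-normalized log2 intensities without background correction. Scanner software and chip layout are not given in the sources used here.

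Background correction and quantile normalization used the neqc function (offset 16) from limma 3.58.1, run under R 4.3.3. The probe with the highest mean stood for a gene, which left 18312 features. Testing in a region required detection (p-value under 0.05) on at least 4 of its 24 arrays, or, between regions, on at least 4 of all 48. The fit held 6 group means and sex per region, with a variance trend. The region comparison used within-mouse differences, and Benjamini-Hochberg adjustment ran over all tested features (threshold 0.05). All adjusted p-values in the text are limma's. The fit was tested on simulated data.

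Groups, ages and sexes came from the labels, and mice were numbered within groups. The labels' replicate numbers repeat within groups and do not pair mice of the 2 genotypes. The number of arrays limits the precision.

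The members, the gene lists and the tests were chosen with earlier results of these data known. The text names all members, the 3 cortical features nearest to each by Pearson correlation, the called genes of each list (up to the 4 largest per comparison) and near relatives. For length not every gene so taken is named. Among the relatives, Slc23a1 and Sytl4 were not tested. The motif search used RefSeq windows read with Python 3.11.15.

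Alternatives were no background correction, the authors' log2 values, scale normalization, no detection filter, all probes kept, no sex term, sets of internal sample numbers as a block or left out, a replicate block, and each mouse left out in turn.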

Additional observations from a re-analysis of the deposited data

Results flagged for a closer look

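In 2 genes the change of the genotype difference in striatum between 2 and 11 months passed the test. For Fst the change was -2.36 (limma adjusted p = 8.53e-07) and for Otof it was -1.10 (limma adjusted p = 0.026), on the log2 scale. The Otof call was lost with single mice left out and under 5 other settings, with limma adjusted p-values of 0.0538 to 0.186.

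Among 84 sets of 4 arrays (7 probes in 12 groups), 3 single arrays stood apart from the other 3 of their set by more than Dixon's 95% critical value, and chance alone would give about 1 in 20. All 3 were Otof values. The main Otof probe read 6.21 in BACHD-ΔN17 striatum replicate 2 at 7 months, against 6.98 to 7.02 in the rest of that group. The second, mostly undetected Otof probe read 5.68 in BACHD-ΔN17 cortex replicate 4 at 7 months, not above background, against 4.84 to 4.88 in the rest of that group. It read 7.36 in wild-type cortex replicate 2 at 11 months, above background, against 4.79 to 5.18 in the rest of that group.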

How the results depend on the processing

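The striatal calls of Fst at 7 and 11 months, Otof at 11 months and Gpr153 at 7 and 11 months held under every alternative run, with limma adjusted p-values of at most 1.35e-05, 1.75e-06, 0.000659, 0.0287 and 0.0273, as did the change of Fst between 2 and 11 months (at most 0.0017). The losses with 1 mouse left out are given above beside each gene. Otof at 7 months also missed without internal sample numbers 1 to 8 (adjusted p = 0.0605), and so did Fst between regions (0.0731). Mslnl passed between regions without numbers 1 to 8 (0.032) and with sets of 8 as a block (0.0411).

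Counts of called features moved by over 1.5 times as follows. With scale normalization the 196 cortical calls at 7 months became 64, the 1783 at 11 months 710 and the 1412 striatal calls at 7 months 708. With numbers 1 to 32 only, the cortical calls at 7 months were 71, the striatal ones at 7 months 916, the 750 calls of the change between ages 484, the 15 of wild-type age 9 and the 4146 between regions 2427. Without numbers 1 to 8, cortex at 11 months gave 703 and the 1 striatal call at 2 months became 0. With the sets of 8 as a block, the 2118 striatal calls at 11 months became 1388 and the change between ages 395. The labels' replicate numbers do not pair the mice, and with the replicate block the counts were 648 (cortex, 11 months), 1034 (striatum, 11 months), 207 (change between ages) and 2470 (regions). With 1 mouse left out, striatal calls at 7 months ranged from 859 (without BACHD-ΔN17 replicate 3) to 1360 and those of wild-type age from 8 (without wild-type replicate 1 of 2 or of 11 months) to 20. Scale normalization moved the median of all features to -0.17 at 11 months in striatum and -0.19 for the change between ages. The share of calls that were higher became 28.3% from 43.2% (cortex, 11 months), 31.5% from 42% (striatum, 7 months), 14.1% from 46.3% (striatum, 11 months), 14.7% from 35.9% (change between ages), 80% from 66.7% (wild-type age, 55% without background correction) and 39% from 49.1% (regions).

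With numbers 1 to 32 only, Gpr153 in cortex at 7 months was -2.38 and Mslnl at 11 months -1.25. Values near 0 changed sign. In cortex at 2 months Sytl1 was -0.0162 without background correction and with the authors' values, Otof -0.0508 and Fst 0.0245 with numbers 1 to 32 only. Fst in striatum at 2 months was -0.036 with the sets of 8 and -0.0656 with the replicate block. Mslnl in wild-type age was -0.0051 with the sets of 8, -0.1341 with numbers 1 to 32 and -0.0713 with the replicate block. With 1 mouse left out the ranges at 2 months in cortex were -0.3183 to 0.2708 (Sytl1), -0.1306 to 0.1924 (Otof), -0.0507 to 0.2351 (Mslnl) and -0.2968 to 0.0584 (Fst). They were -0.0856 to 0.1592 for Fst in striatum at 2 months and -0.0769 to 0.1712 for Mslnl in wild-type age. The causes were not tested. Signal near background limits what can be said of Sytl1, Slc23a3 and Mslnl in striatum.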
